A study of Saccharomyces cerevisiae with 24 samples.

Results

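The genes described here are 53 enzymes of amino acid biosynthesis in the budding yeast Saccharomyces cerevisiae, together with GCN4, the transcription activator of many of those genes. They were chosen by name from a list of pathway enzymes. HIS3 and TRP1, which serve as selection markers in these strains, and the genes of sulfur and arginine metabolism were left out. All 54 had a probe set that names 1 gene, among 5656 genes measured. The list holds 6 genes of the histidine pathway, 10 of the branched-chain pathway, 7 of the lysine pathway, 12 of the aromatic pathway, 8 of the aspartate, asparagine and threonine branch, 4 of the serine pathway, 6 of glutamate, glutamine and proline synthesis, and GCN4.

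RNA came from 2 MATa strains. In YSS89 (UASGAL1-IFH1-13myc-TRP1, UASIFH1::HIS3-UASGAL1) the upstream activating sequence of IFH1 is replaced by that of GAL1, with HIS3 as the marker. In YSS37 (IFH1-13myc-TRP1) the gene keeps its own upstream sequence. Both carry the myc tag with TRP1 beside it, both grew to log phase in YPLG medium at 30 °C, and both received galactose to 2%. Ifh1 is a coactivator of ribosomal protein genes. Samples of YSS89 were taken at 0, 20, 30, 40 and 60 min and samples of YSS37 at 0, 30 and 60 min. Each of these 8 groups has 3 biological replicates, which makes 24 arrays. The labels give the times with no unit, and minutes are assumed. No culture without galactose was sampled, so galactose and time in culture cannot be told apart.

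Yeast makes all amino acids from intermediates of central metabolism. Branched pathways start from a few of these, and the first enzyme of a branch is often inhibited by its end product and often has a pair of isozymes. When an amino acid runs short, the kinase Gcn2 slows translation in general but raises translation of the GCN4 mRNA, and Gcn4 then activates genes in most of these pathways. This response is called general amino acid control. The arrays read mRNA only, so neither Gcn4 protein nor enzyme activity was measured.

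A signal is given as the quantile-normalized log2 intensity of the gene's probe set, with the arrays in the order replicate 1, 2 and 3. A change is a difference of group means on that log2 scale, ± its standard error (SE, n = 3 arrays a group). Changes were called where limma's p, adjusted over all 5656 genes after Benjamini and Hochberg, was under 0.05, and "rose" or "fell" refers to called changes. Levels of different genes are not compared, because probe sets differ in brightness. The instrument files show 4 hybridization rounds. The first held 8 of the 9 YSS37 arrays, the second and the third held the YSS89 arrays but for 2 and the last YSS37 array, and the fourth held replicates 2 and 3 of YSS89 at 0 min alone. No YSS89 array was recorded with the chip lot of the YSS37 arrays, so strain and lot cannot be told apart. A fit with the round as a block (a level shift for each round) links the strains through the last YSS37 array alone. In it the YSS89 level at 0 min rests on replicate 1, since replicates 2 and 3 share no round with another group. Calls lost in that fit thus cannot be put down to the round. IFH1 itself read 10.37, 10.28 and 10.49 in YSS89 at 20 min, against 4.51, 4.37 and 4.95 at 0 min, and 5.46, 5.35 and 5.19 in YSS37 at 60 min. The summed signal of 7 a-cell genes was 769.1 to 1705.1 in YSS89 and 751 to 1046.8 in YSS37 on the deposited scale, and that of 4 alpha-cell genes was 32 to 55.8 in YSS89 and 30.9 to 47.6 in YSS37. The a-cell gene MFA1 read 290, 74.9 and 108.3 in YSS89 at 0 min and 275, 332.7 and 318.9 at 20 min. In YSS37 at 0 min it read 71.9, 89.1 and 72.7. Replicates 2 and 3 of YSS89 at 0 min thus read below replicate 1 in MFA1. They also did in MFA2 (933, 398 and 385.7), AGA2 (86.7, 51.5 and 47.7) and ASG7 (17.2, 8.4 and 8.3). STE2 (122, 77.1 and 99.6) and BAR1 (86.9, 73.9 and 39.2) were likewise highest in replicate 1. STE6, the remaining a-cell gene, read 105.3, 85.3 and 108.4 there. The cause was not tested.

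The first YSS89 time point, 20 min, had 2 of the 54 genes higher and 9 lower than 0 min, against 7.6% and 10.4% of all genes (5 and 4 members under median centring). At 30 min 15 rose (all genes 22.4%) and 10 fell (23.6%), or 19 and 8 under median centring. At 40 min 26 rose (all genes 23.9%) and 7 fell (21.5%), and at 60 min 30 rose (all genes 23.9%) and 5 fell (19.8%). Under median centring 28 rose and 4 fell at 40 min, and 30 rose and 3 fell at 60 min. GCN4, whose direction depends on the scaling, is 1 of the genes counted as lower at 30, 40 and 60 min. The median change of the 54 over these 4 times was -0.05, 0.19, 0.36 and 0.43, while that of all genes was -0.01, 0.01, 0.06 and 0.07. In YSS37 11 rose and 0 fell at 30 min (all genes 14.4% and 12.4%; 0 fell also at an unadjusted p under 0.05), and 18 rose and 2 fell at 60 min (all genes 21.1% and 20.5%; 11 and 6 members under median centring). The medians of the 54 in YSS37 were 0.20 and 0.24. Under median centring these were 0.072 and 0.065, and the 4 medians in YSS89 were 0.08, 0.24, 0.37 and 0.46. In bulk RNA fewer cells with a transcript and less of it per cell cannot be told apart. The members' share at 30 min in YSS89 was thus near that of all genes, and at 40 and 60 min the share that rose was above it. Shares of all genes, here and below, come from the quantile-normalized fit of all arrays. Member counts under median centring or another alternative therefore cannot be set against these shares.

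Many of the calls at 20 min were lost without 2 arrays of YSS89 at 0 min. Every YSS89 change was also computed without replicates 2 and 3 of YSS89 at 0 min, called the reduced baseline from here on, where the 1 array left is assumed to vary like the other groups. On it 1 member rose and 1 fell at 20 min, 15 rose and 7 fell at 30 min, 25 rose and 4 fell at 40 min, and 23 rose and 3 fell at 60 min. Of the 11 calls at 20 min, 2 remained on it, LYS20 and LYS21, although some of the lost falls stayed about as large, such as LEU4 at -0.54 and GDH1 at -0.84. HIS2, ILV1, ILV5 and LYS12 were the 4 members called in none of the 11 comparisons of strains and times.

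**Figure D1:**
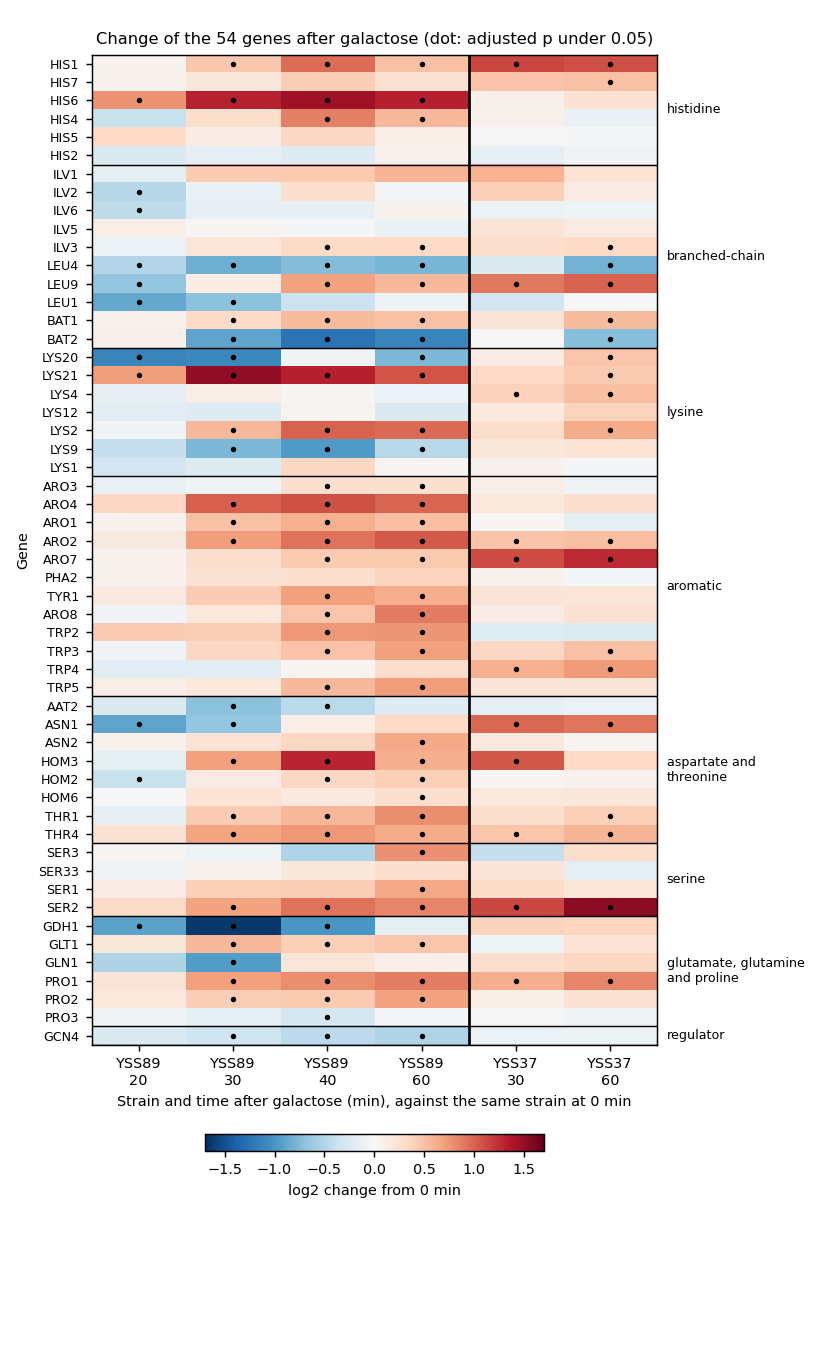
Log2 change of each of the 54 genes from 0 min of the same strain, with YSS89 at 20, 30, 40 and 60 min left of the thick line and YSS37 at 30 and 60 min right of it. Rows follow the pathways, and a dot marks an adjusted p under 0.05. Red cells fill the aromatic block in YSS89 at 40 and 60 min, LYS20 and LYS21 differ in colour, and GCN4, in the last row, is blue (below 0) on this quantile-normalized scale, while the values as deposited give it 0.57 at 30 min in YSS89.

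In the histidine pathway HIS6 rose most in YSS89, and HIS1 in YSS37. HIS6 encodes the isomerase of the pathway's middle part (YIL020C). In YSS89 it read 4.25, 4.07 and 4.15 at 0 min, 5.03, 4.82 and 4.91 at 20 min, 5.55, 5.39 and 5.45 at 30 min, 5.63, 5.52 and 5.63 at 40 min, and 5.38, 5.66 and 5.40 at 60 min. The YSS37 arrays read 4.17, 4.79 and 4.31 at 0 min, 4.81, 4.46 and 4.29 at 30 min, and 4.89, 4.33 and 4.78 at 60 min. All 12 later YSS89 arrays lay above the 3 at 0 min, and those from 30 min on also lay above every YSS37 array. The rise in YSS89 was 0.77 ± 0.16 at 20 min, 1.31 ± 0.16 at 30 min, 1.44 ± 0.16 (2.72-fold, adjusted p = 6.2e-07) at 40 min and 1.33 ± 0.16 (2.51-fold) at 60 min. In YSS37 the change was 0.24 ± 0.16 at 60 min (adjusted p = 0.254).

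HIS1, the first enzyme of the pathway, rose in both strains. Its signals were 7.37, 7.72 and 7.86 in YSS89 at 0 min and 8.34, 8.04 and 8.08 at 60 min. In YSS37 they were 7.0, 6.84 and 7.0 at 0 min, 8.08, 8.09 and 8.07 at 30 min, and 8.12, 8.21 and 7.78 at 60 min. Arrays of the strains did not overlap at 0 min, where YSS89 was higher, and they overlapped at 60 min. The change at 60 min was 0.50 ± 0.13 (adjusted p = 0.00305) in YSS89 and 1.09 ± 0.13 (adjusted p = 1.18e-06) in YSS37. HIS4, a trifunctional enzyme, rose in YSS89 by 0.85 ± 0.21 at 40 min and 0.56 ± 0.21 at 60 min, and its change in YSS37 at 60 min was -0.12 ± 0.21 (adjusted p = 0.695). HIS7, the glutamine-using synthase, passed the test in YSS37 at 60 min alone (0.50 ± 0.19, adjusted p = 0.0403), and not there with the hybridization round as a block (0.55, adjusted p = 0.0608). HIS5, the aminotransferase, changed at no time from 0 min, and HIS2, the phosphatase, was called nowhere. In all, 3 of the 6 histidine genes rose in YSS89 at 60 min (all genes 23.9%) and 2 in YSS37 (all genes 21.1%), counts too small to set apart from those shares. On the reduced baseline the HIS6 change at 20 min (0.67, adjusted p = 0.114) and the HIS4 change at 60 min (0.73, adjusted p = 0.0757) were not called.

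The branched-chain pathway makes isoleucine, valine and leucine, and its genes were the most often lower early in YSS89. At 20 min 5 of 10 fell (all genes 10.4%). They were ILV2 (-0.49 ± 0.16) and ILV6 (-0.43 ± 0.13), the catalytic and regulatory subunits of acetolactate synthase, LEU4 (-0.50 ± 0.15), LEU9 (-0.66 ± 0.15) and LEU1 (-0.86 ± 0.18). None of the 5 was called on the reduced baseline, with changes of -0.31, -0.09, -0.54, -0.40 and -0.54 and adjusted p of 0.471, 0.778, 0.0976, 0.295 and 0.224. LEU4 at 20 min also depends on the scaling, with a change of 0.06 under median centring. By 60 min 3 of the 10 had risen and 2 had fallen, in YSS89 as in YSS37, namely ILV3, LEU9 and BAT1 higher and LEU4 and BAT2 lower, near the shares of all genes (23.9% and 19.8% in YSS89, 21.1% and 20.5% in YSS37).

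Leucine synthesis starts with alpha-isopropylmalate synthase, which has a main form, Leu4, and a second form, Leu9. LEU4 read 10.73, 10.97 and 10.38 in YSS89 at 0 min, 10.34, 10.30 and 9.95 at 20 min, 9.96, 9.91 and 9.72 at 30 min, 9.96, 9.99 and 9.93 at 40 min, and 10.02, 9.80 and 9.93 at 60 min. YSS37 gave 10.53, 10.65 and 10.74 at 0 min, 10.36, 10.52 and 10.29 at 30 min, and 10.05, 9.87 and 9.59 at 60 min. In both strains the arrays at 60 min lay below those at 0 min with no overlap. The change at 60 min was -0.78 ± 0.15 (adjusted p = 0.000263) in YSS89 and -0.80 ± 0.15 (adjusted p = 0.00018) in YSS37, and the difference of the 2 changes was 0.03 ± 0.21 (adjusted p = 0.946).

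LEU9 ran the other way. It read 5.93, 6.36 and 6.29 in YSS89 at 0 min, 5.75, 5.38 and 5.46 at 20 min, 6.48, 6.32 and 6.14 at 30 min, 6.82, 6.70 and 7.12 at 40 min, and 6.59, 6.75 and 6.88 at 60 min. Its YSS37 signals were 5.23, 5.61 and 5.78 at 0 min, 6.32, 6.54 and 6.45 at 30 min, and 6.54, 6.57 and 6.53 at 60 min. At 60 min every array of both strains lay above its own 0 min arrays, and YSS37 started lower. The rise at 60 min was 0.55 ± 0.15 (adjusted p = 0.00693) in YSS89 and 1.01 ± 0.15 (2.01-fold, adjusted p = 2.8e-05) in YSS37.

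Bat1 in mitochondria and Bat2 in the cytosol are the aminotransferases of the last step. BAT1 read 9.46, 9.43 and 9.26 in YSS89 at 0 min and 9.98, 9.87 and 9.78 at 60 min, and in YSS37 9.07, 9.43 and 9.43 at 0 min and 9.89, 9.87 and 9.81 at 60 min. BAT2 read 8.41, 8.37 and 8.20 in YSS89 at 0 min, 8.36, 8.20 and 8.67 at 20 min, 7.54, 7.53 and 7.21 at 30 min, 6.80, 7.24 and 7.19 at 40 min, and 7.07, 7.06 and 7.48 at 60 min. In YSS37 BAT2 read 8.52, 8.41 and 8.32 at 0 min, 8.26, 8.56 and 8.45 at 30 min, and 7.68, 7.6 and 7.82 at 60 min. BAT2 was thus low in YSS89 from 30 min on, while in YSS37 the arrays at 30 min overlapped those at 0 min and only those at 60 min were lower. At 30 min the change of BAT2 was -0.90 ± 0.15 in YSS89 and 0.01 ± 0.15 in YSS37, a difference of -0.91 ± 0.21 (adjusted p = 0.00678). At 60 min it was -1.12 ± 0.15 (2.18-fold lower) in YSS89 and -0.72 ± 0.15 in YSS37, and the difference of -0.41 ± 0.21 was not called (adjusted p = 0.22). BAT1 rose by 0.49 ± 0.12 in YSS89 and 0.54 ± 0.12 in YSS37 at 60 min. The reduced baseline gave a BAT1 change of 0.41 in YSS89 (adjusted p = 0.0717).

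ILV3, the dihydroxyacid dehydratase shared by the isoleucine and valine branches, rose by 0.34 ± 0.12 at 60 min in both strains, and was called in neither with the round as a block (0.16 in YSS89 and 0.31 in YSS37, adjusted p = 0.571 and 0.087). LEU1, the isomerase after Leu4, fell by 0.86 at 20 min and by 0.70 at 30 min in YSS89, and at 60 min its change was -0.08 ± 0.18 (adjusted p = 0.735). ILV1, the threonine deaminase that opens the isoleucine branch, changed by 0.58 ± 0.24 in YSS89 at 60 min and was not called (adjusted p = 0.0594), nor was the reductoisomerase ILV5 (-0.12 ± 0.14, adjusted p = 0.527). LEU1 at 30 min (-0.38, adjusted p = 0.252) and ILV3 in YSS89 at 60 min (0.21, adjusted p = 0.386) were not called on the reduced baseline.

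In the lysine pathway the genes of the 2 homocitrate synthases, LYS20 (YDL182W) and LYS21 (YDL131W), moved in opposite directions in YSS89. Homocitrate synthase is the first step and is inhibited by lysine. LYS20 read 8.44, 9.10 and 8.73 in YSS89 at 0 min, 7.74, 7.58 and 7.57 at 20 min, 7.70, 7.74 and 7.55 at 30 min, 8.84, 8.73 and 8.55 at 40 min, and 8.30, 7.99 and 7.69 at 60 min. LYS21 read 7.09, 7.6 and 7.75 in YSS89 at 0 min, 8.36, 8.14 and 8.07 at 20 min, 9.03, 9.0 and 8.95 at 30 min, 8.80, 8.73 and 8.87 at 40 min, and 8.63, 8.43 and 8.61 at 60 min. LYS20 was low at 20 and 30 min, back among its 0 min arrays at 40 min and low again at 60 min, while every LYS21 array after 0 min was above those at 0 min. In YSS37 LYS20 read 8.70, 8.49 and 8.60 at 0 min, 8.94, 8.55 and 8.73 at 30 min, and 9.13, 9.10 and 8.96 at 60 min. In YSS37 LYS21 read 7.79, 7.73 and 7.78 at 0 min, 8.19, 8.05 and 8.08 at 30 min, and 8.19, 8.21 and 8.26 at 60 min. Both genes were higher in YSS37 at 60 min than at 0 min, with no overlap.

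The change of LYS20 in YSS89 was -1.12 ± 0.16 (2.18-fold lower, adjusted p = 5.69e-05) at 20 min, -1.09 ± 0.16 at 30 min, -0.05 ± 0.16 (adjusted p = 0.816) at 40 min and -0.76 ± 0.16 (adjusted p = 0.000656) at 60 min. That of LYS21 was 0.71 ± 0.13, 1.51 ± 0.13 (2.85-fold, adjusted p = 1.57e-08), 1.31 ± 0.13 and 1.07 ± 0.13 at the same times. In YSS37 at 60 min LYS20 rose by 0.47 ± 0.16 and LYS21 by 0.45 ± 0.13. The change in YSS89 minus that in YSS37 at 60 min was -1.23 ± 0.22 (adjusted p = 0.00118) for LYS20 and 0.63 ± 0.18 (adjusted p = 0.0278) for LYS21. Each of these genes was read on its own probe set, and the 1 probe set that names both was not used. LYS20 at 60 min was -0.45 on the reduced baseline (adjusted p = 0.0949), while both genes were still called at 20 and 30 min and in both response differences. With the round as a block LYS20 was not called at 60 min (-0.31, adjusted p = 0.277) or in the response differences at 30 min (-0.78, adjusted p = 0.0595) and 60 min (-0.83, adjusted p = 0.0792), while LYS21 was called in both.

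**Figure D2:**
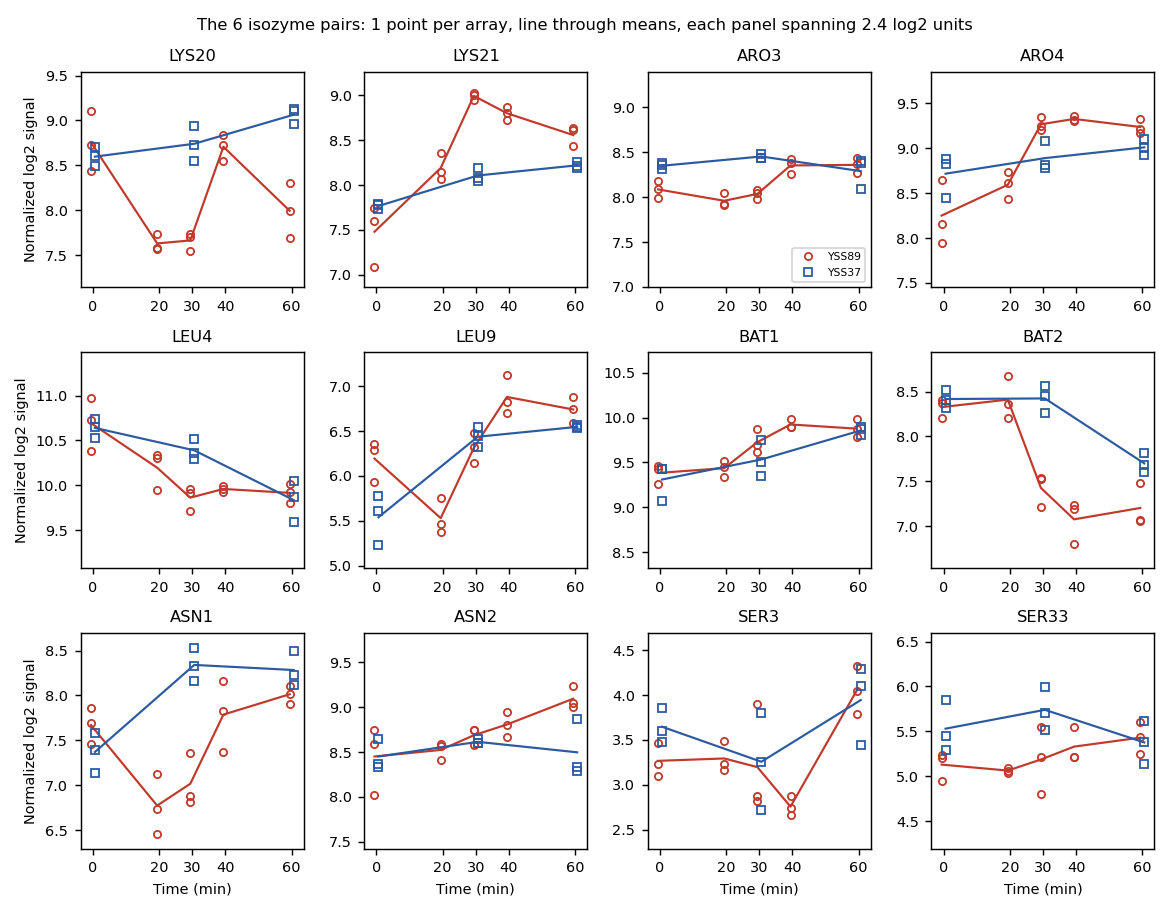
Normalized log2 signal of the 6 isozyme pairs against time after galactose (min), 1 point per array, red circles for YSS89, blue squares for YSS37, lines through group means, every panel 2.4 log2 units tall. LYS20 dips at 20 and 30 min in YSS89 as LYS21 climbs, and BAT2 and LEU4 end lower than at 0 min in both strains while BAT1 and LEU9 end higher.

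An exact two-sided permutation test of the second isozyme's log2 signal minus the first's cannot give a p under 0.1 with 3 arrays against 3. Over 6 pairs and 10 comparisons (60 tests) the lowest p after Benjamini-Hochberg adjustment was 0.154. LYS21 minus LYS20 changed by 1.83 at 20 min, 2.60 at 30 min and 1.84 at 60 min in YSS89 (exact p = 0.1 each), and by -0.02 in YSS37 at 60 min.

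Of the other lysine genes LYS2, the alpha-aminoadipate reductase, rose in YSS89 by 0.55 ± 0.15 at 30 min, 1.01 ± 0.15 at 40 min and 0.96 ± 0.15 at 60 min, and by 0.63 ± 0.15 in YSS37 at 60 min. LYS9, the saccharopine reductase that follows it, fell in YSS89 by 0.77 at 30 min, 0.97 at 40 min and 0.47 at 60 min. In YSS37 its change at 60 min was 0.23 ± 0.17 (adjusted p = 0.3). LYS4, the homoaconitase, rose in YSS37 by 0.52 ± 0.14 at 60 min (6.47, 6.77 and 6.67, against 6.05, 6.04 and 6.27 at 0 min). In YSS89 LYS4 changed by -0.10 ± 0.14 (adjusted p = 0.612), with overlapping arrays of 6.72, 6.39 and 6.42 at 60 min and 6.42, 6.44 and 6.95 at 0 min. LYS1, which forms lysine itself, did not pass the test against 0 min in either strain, and LYS12 passed nowhere. The lysine pathway thus had 2 of 7 genes higher and 2 lower in YSS89 at 60 min (all genes 23.9% and 19.8%), and 4 higher in YSS37 (all genes 21.1%). On the reduced baseline LYS9 at 60 min was -0.30 (adjusted p = 0.299) and LYS2 at 30 min 0.44 (adjusted p = 0.116).

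The aromatic pathway had the largest share of genes that rose in YSS89 at 40 and 60 min, though not at 30 min. It runs from DAHP synthase through the shikimate steps to chorismate and from there to phenylalanine, tyrosine and tryptophan. Of its 12 genes 3 rose at 30 min (all genes 22.4%), 10 at 40 min and 10 at 60 min (all genes 23.9% at both), while at 20 min the lowest adjusted p was that of TRP2 (0.084). In YSS37 3 rose at 30 min (all genes 14.4%) and 4 at 60 min (all genes 21.1%). TYR1 (0.51, adjusted p = 0.138) and TRP2 (0.59, adjusted p = 0.0725) were not called at 60 min on the reduced baseline, and the other 8 were.

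DAHP synthase is a pair of isozymes, the phenylalanine-inhibited Aro3 and the tyrosine-inhibited Aro4. ARO4 read 8.16, 8.65 and 7.94 in YSS89 at 0 min, 8.74, 8.43 and 8.61 at 20 min, 9.20, 9.25 and 9.35 at 30 min, 9.32, 9.36 and 9.30 at 40 min, and 9.17, 9.33 and 9.21 at 60 min. In YSS37 the values were 8.45, 8.82 and 8.88 at 0 min, 9.08, 8.78 and 8.81 at 30 min, and 9.0, 9.10 and 8.93 at 60 min. From 30 min on the YSS89 arrays were above all arrays of YSS37. ARO3 spanned 7.91 to 8.44 over the 15 YSS89 arrays and 8.09 to 8.48 over the 9 YSS37 arrays. At 60 min ARO4 rose by 0.99 ± 0.15 (1.98-fold) and ARO3 by 0.27 ± 0.10 in YSS89, and in YSS37 neither passed, with changes of 0.29 ± 0.15 (adjusted p = 0.13) and -0.06 ± 0.10 (adjusted p = 0.63).

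ARO1, the arom enzyme that carries out the steps up to chorismate synthase, rose by 0.51 ± 0.12 in YSS89 at 60 min (9.52, 9.10 and 9.04, against 8.67, 8.60 and 8.89 at 0 min). In YSS37 ARO1 read 9.06, 9.10 and 9.24 at 0 min, 9.15, 9.27 and 9.06 at 30 min and 8.94, 9.02 and 8.97 at 60 min, a change at 60 min of -0.16 ± 0.12 (adjusted p = 0.319). Every YSS89 array at 60 min was above those at 0 min, and every YSS37 array was below. ARO2, the chorismate synthase, had the largest change of the pathway in YSS89 at 60 min. It read 8.51, 8.70 and 8.91 at 0 min, 8.92, 8.94 and 8.72 at 20 min, 9.58, 9.33 and 9.35 at 30 min, 9.69, 9.60 and 9.60 at 40 min, and 9.78, 9.69 and 9.79 at 60 min. The arrays of 30, 40 and 60 min lay above all 6 of 0 and 20 min. The rise at 60 min was 1.05 ± 0.14 (2.07-fold, adjusted p = 7.62e-06) in YSS89 and 0.52 ± 0.14 (adjusted p = 0.00675) in YSS37.

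At the chorismate branch point ARO7, the chorismate mutase that leads to phenylalanine and tyrosine, rose more in YSS37. It read 5.6, 5.80 and 6.04 in YSS89 at 0 min, 6.13, 6.10 and 6.02 at 30 min and 6.38, 6.27 and 6.11 at 60 min. The YSS37 arrays read 4.69, 4.84 and 5.31 at 0 min, 5.99, 5.99 and 6.18 at 30 min and 6.17, 6.37 and 6.09 at 60 min. Arrays of the strains did not overlap at 0 min, where YSS89 was higher, and overlapped at 30 and 60 min. The rise at 60 min was 0.44 ± 0.15 (adjusted p = 0.022) in YSS89 and 1.27 ± 0.15 (2.41-fold, adjusted p = 1.62e-06) in YSS37.

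On the other arm TRP2, which with TRP3 forms anthranilate synthase, rose in YSS89 and did not pass in YSS37. TRP2 read 7.74, 7.66 and 7.36 in YSS89 at 0 min, 7.79, 8.09 and 8.13 at 30 min and 8.42, 8.36 and 8.22 at 60 min. YSS37 gave 7.95, 8.14 and 7.95 at 0 min, 8.38, 7.53 and 7.52 at 30 min and 7.83, 7.87 and 7.67 at 60 min. Replicate 1 of YSS37 at 30 min stood above the other 2. The change of TRP2 at 60 min was 0.75 ± 0.17 (adjusted p = 0.00154) in YSS89 and -0.23 ± 0.17 (adjusted p = 0.307) in YSS37. TRP3 rose in both strains at 60 min (0.70 ± 0.16 and 0.49 ± 0.16, YSS89 first).

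TRP5, the tryptophan synthase, and ARO8, an aromatic aminotransferase, rose late in YSS89. TRP5 read 8.22, 8.46 and 8.39 at 0 min, 8.40, 8.59 and 8.62 at 30 min, 8.88, 8.86 and 8.99 at 40 min and 9.11, 9.06 and 9.03 at 60 min, and 8.85, 8.69 and 8.75 in YSS37 at 0 min and 8.95, 9.05 and 8.93 at 60 min. ARO8 read 8.20, 8.54 and 8.34 in YSS89 at 0 min, 8.53, 8.47 and 8.61 at 30 min, 8.78, 8.78 and 8.93 at 40 min and 9.36, 9.12 and 9.26 at 60 min, and 8.49, 8.75 and 8.84 in YSS37 at 0 min and 8.84, 9.0 and 8.97 at 60 min. In YSS89 the 0 and 30 min arrays of both genes overlapped and those of 40 and 60 min were higher. At 60 min TRP5 rose by 0.71 ± 0.10 and ARO8 by 0.89 ± 0.11 (1.85-fold) in YSS89. In YSS37 their changes were 0.22 ± 0.10 (adjusted p = 0.0793) and 0.24 ± 0.11 (adjusted p = 0.0821). TYR1, the prephenate dehydrogenase of tyrosine synthesis, rose by 0.61 ± 0.18 in YSS89 at 60 min, and the prephenate dehydratase PHA2 did not pass (0.39 ± 0.18, adjusted p = 0.0864). TRP4, the transferase that uses anthranilate, changed by 0.30 ± 0.15 (adjusted p = 0.123) in YSS89 and rose by 0.72 ± 0.15 in YSS37.

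The aspartate branch leads through homoserine to threonine, and by side steps to asparagine. In YSS89 2 of its 8 genes fell at 20 min (ASN1 and HOM2; all genes 10.4%), and 6 rose at 60 min (all genes 23.9%). YSS37 had 3 higher at 30 min and 3 at 60 min (all genes 14.4% and 21.1%). HOM3, the aspartate kinase that opens the branch, peaked at 40 min in YSS89. It read 5.99, 6.29 and 6.35 at 0 min, 6.27, 5.93 and 5.99 at 20 min, 6.93, 6.81 and 6.98 at 30 min, 7.62, 7.39 and 7.49 at 40 min and 6.93, 6.79 and 6.78 at 60 min. Its YSS37 signals were 7.12, 6.58 and 6.51 at 0 min, 7.99, 7.91 and 7.49 at 30 min and 7.18, 7.0 and 7.05 at 60 min. The YSS89 arrays of 40 min were above all its others, and in YSS37 the 30 min arrays were the highest. The change was 1.29 ± 0.16 (2.45-fold, adjusted p = 1.54e-06) at 40 min and 0.62 ± 0.16 at 60 min in YSS89, and 1.06 ± 0.16 (adjusted p = 5.39e-05) at 30 min and 0.34 ± 0.16 (adjusted p = 0.0878) at 60 min in YSS37.

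The next enzymes changed less. At 60 min HOM2, the semialdehyde dehydrogenase, rose by 0.41 ± 0.11 and HOM6, the homoserine dehydrogenase, by 0.28 ± 0.10 in YSS89, and neither passed in YSS37 (0.07 ± 0.11 and 0.20 ± 0.10, adjusted p = 0.623 and 0.13). THR1, the homoserine kinase, had the branch's largest change in YSS89 at 60 min. It read 9.87, 9.77 and 9.77 there, against 8.94, 9.09 and 9.02 at 0 min, and 9.22, 9.40 and 9.21 in YSS37 at 60 min, against 8.54, 8.87 and 9.21 at 0 min. The 60 min arrays of YSS89 lay apart from its 0 min arrays, and in YSS37 1 of the 0 min arrays reached the lowest of 60 min. THR1 rose by 0.78 ± 0.13 (adjusted p = 5.46e-05) in YSS89 and by 0.40 ± 0.13 (adjusted p = 0.0151) in YSS37. THR4, the threonine synthase, rose by 0.63 ± 0.12 in YSS89 and by 0.57 ± 0.12 in YSS37. HOM6 was not called on the reduced baseline (0.24, adjusted p = 0.229), nor was HOM2 at 20 min (-0.20, adjusted p = 0.432).

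The asparagine synthetases Asn1 and Asn2 differed. ASN1 (YPR145W) read 7.46, 7.86 and 7.69 in YSS89 at 0 min, 7.12, 6.74 and 6.46 at 20 min, 7.36, 6.81 and 6.88 at 30 min, 7.83, 7.37 and 8.16 at 40 min and 7.91, 8.02 and 8.11 at 60 min. In YSS37 the values were 7.14, 7.58 and 7.39 at 0 min, 8.33, 8.16 and 8.53 at 30 min and 8.23, 8.50 and 8.12 at 60 min. At 30 min all YSS89 arrays were below their own 0 min arrays, and all YSS37 arrays were above theirs. The change at 30 min was -0.66 ± 0.20 (adjusted p = 0.0119) in YSS89 and 0.97 ± 0.20 (1.96-fold, adjusted p = 0.00119) in YSS37. At 60 min it was 0.34 ± 0.20 (adjusted p = 0.177) in YSS89 and 0.91 ± 0.20 (adjusted p = 0.00108) in YSS37. On the reduced baseline the YSS89 changes at 20 min (-0.69, adjusted p = 0.187) and 30 min (-0.45, adjusted p = 0.253) were not called.

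ASN2 read 8.02, 8.59 and 8.74 in YSS89 at 0 min and 9.0, 9.23 and 9.05 at 60 min, and in YSS37 8.37, 8.65 and 8.33 at 0 min and 8.29, 8.33 and 8.87 at 60 min. It rose by 0.64 ± 0.17 (adjusted p = 0.00373) in YSS89 at 60 min, and its change in YSS37 was 0.04 ± 0.17 (adjusted p = 0.86). The difference of the 2 changes, 0.60 ± 0.23, was not called (adjusted p = 0.0933). AAT2, the cytosolic aspartate aminotransferase, fell in YSS89 by 0.70 at 30 min and by 0.46 at 40 min, and was not called at 60 min (-0.22 ± 0.12, adjusted p = 0.138), nor at 40 min on the reduced baseline (-0.33, adjusted p = 0.146).

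Of the 4 serine genes 3 rose in YSS89 at 60 min (all genes 23.9%) and 1 in YSS37 (all genes 21.1%). SER2, the phosphoserine phosphatase of the last step, had the largest rise of all 54 genes in YSS37 at 60 min. It read 5.52, 5.40 and 5.28 in YSS89 at 0 min and 6.12, 6.4 and 6.17 at 60 min, and 5.20, 4.62 and 4.09 in YSS37 at 0 min and 6.18, 6.25 and 6.05 at 60 min. All YSS37 arrays at 0 min lay below those of YSS89, and the strains overlapped at 60 min. The rise at 60 min was 0.83 ± 0.19 (adjusted p = 0.00132) in YSS89 and 1.52 ± 0.19 (2.87-fold, adjusted p = 2.46e-06) in YSS37, and their difference was not called (-0.69 ± 0.27, adjusted p = 0.089). SER1, the aminotransferase before it, rose by 0.65 ± 0.17 in YSS89 at 60 min and not by a called amount in YSS37 (0.21 ± 0.17, adjusted p = 0.345).

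Phosphoglycerate dehydrogenase, the first serine step, is encoded by SER3 and SER33, and SER3 was the dimmest of the 54. SER3 read 3.47, 3.23 and 3.10 in YSS89 at 0 min, 3.90, 2.87 and 2.82 at 30 min, 2.87, 2.74 and 2.66 at 40 min and 4.32, 3.79 and 4.04 at 60 min. In YSS37 it read 3.48, 3.60 and 3.86 at 0 min and 4.29, 3.44 and 4.10 at 60 min. The YSS89 arrays at 60 min were above those at 0 min (0.78 ± 0.27, adjusted p = 0.0261), and the YSS37 arrays overlapped (0.29 ± 0.27, adjusted p = 0.413). At signals this low the pseudocount of 1.4 understates the changes. SER33 spanned 4.80 to 5.6 in YSS89 and 5.14 to 5.99 in YSS37 and was not called against 0 min at any time. The reduced baseline left SER3 (0.58, adjusted p = 0.296) and SER2 (0.71, adjusted p = 0.058) not called in YSS89 at 60 min.

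Glutamate and glutamine carry the nitrogen for all the other pathways. GDH1 (YOR375C), the NADP-linked glutamate dehydrogenase that fixes ammonia, had the largest fall of the 54 genes. In YSS89 it read 9.72, 9.57 and 10.09 at 0 min, 9.05, 8.92 and 8.68 at 20 min, 8.75, 7.83 and 7.87 at 30 min, 8.99, 8.51 and 8.92 at 40 min and 9.48, 9.56 and 9.89 at 60 min. The YSS37 arrays read 8.39, 9.38 and 9.64 at 0 min, 9.53, 9.28 and 9.76 at 30 min and 9.34, 9.63 and 9.56 at 60 min. The 9 YSS89 arrays of 20, 30 and 40 min were all below its 0 and 60 min arrays, and in YSS37 the low array was replicate 1 at 0 min. The change in YSS89 was -0.91 ± 0.27 at 20 min, -1.65 ± 0.27 (3.13-fold lower, adjusted p = 5.86e-05) at 30 min, -0.99 ± 0.27 at 40 min and -0.15 ± 0.27 (adjusted p = 0.674) at 60 min. In YSS37 it was 0.39 ± 0.27 at 30 min and 0.37 ± 0.27 at 60 min (adjusted p = 0.312 and 0.287).

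GLN1, the glutamine synthetase, followed with 8.28, 8.01 and 7.50 in YSS89 at 0 min, 7.12, 7.34 and 7.75 at 20 min, 6.32, 7.15 and 7.47 at 30 min, 7.93, 8.27 and 8.23 at 40 min and 7.54, 8.26 and 8.24 at 60 min. YSS37 gave 8.28, 8.16 and 7.77 at 0 min, 8.61, 8.48 and 7.98 at 30 min and 8.21, 8.70 and 8.36 at 60 min. The YSS89 arrays of 30 min were below all its arrays of 0, 40 and 60 min. The fall at 30 min was -0.95 ± 0.28 (1.93-fold lower, adjusted p = 0.00848). Glutamate synthase, GLT1, which makes glutamate from glutamine, ran the other way in YSS89. It read 7.72, 7.44 and 7.57 at 0 min, 8.10, 8.14 and 8.17 at 30 min and 8.0, 8.10 and 8.06 at 60 min, with the later arrays all higher. Its rise was 0.56 ± 0.11 at 30 min and 0.48 ± 0.11 at 60 min, and in YSS37 at 60 min its change of 0.23 ± 0.11 was not called (adjusted p = 0.0898).

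The first enzymes of proline synthesis rose and the last did not. PRO1, the gamma-glutamyl kinase, had the largest change of this group in YSS89 at 60 min, with 7.34, 7.30 and 7.24 against 6.21, 6.38 and 6.66 at 0 min. Its YSS37 signals were 6.91, 7.10 and 6.98 at 60 min, against 5.93, 6.04 and 6.53 at 0 min. The arrays of the later time were higher in both strains, with no overlap. PRO1 rose by 0.88 ± 0.16 in YSS89 and 0.83 ± 0.16 in YSS37, PRO2, the phosphate reductase, rose by 0.69 ± 0.12 in YSS89 and changed by 0.24 ± 0.12 in YSS37 (adjusted p = 0.122), and PRO3, the carboxylate reductase, changed by -0.02 ± 0.11 in YSS89 (adjusted p = 0.924). On the reduced baseline GLT1 was not called at 60 min (0.34, adjusted p = 0.0985), and GDH1 was not called at 20 min (-0.84, adjusted p = 0.236) or 40 min (-0.92, adjusted p = 0.0801) but was at 30 min.

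Several genes that were low at 20 or 30 min in YSS89 were not called at 60 min, which does not by itself show a return. YSS89 at 60 min was therefore compared with YSS89 at 30 min, a comparison chosen after the values were seen. Genes low at 30 min were picked on the same 30 min arrays, so their p-values here lean toward a rise. The comparison uses no 0 min array, and both times have 1 array in the second hybridization round and 2 in the round after it. Of the 54 genes 8 were higher at 60 min and 1 was lower, against 4.74% and 2.9% of all genes, with a median of 0.19 for the 54 and 0.03 for all genes. GDH1 was higher at 60 min by 1.49 ± 0.27 (2.81-fold, adjusted p = 0.00141), GLN1 by 1.03 ± 0.28 (adjusted p = 0.0242), ASN1 by 1.0 ± 0.20 (adjusted p = 0.00337), LEU1 by 0.62 ± 0.18 (adjusted p = 0.039) and AAT2 by 0.48 ± 0.12 (adjusted p = 0.0153). The other rises were ARO8 (0.71 ± 0.11, adjusted p = 0.000391), TRP5 (0.53 ± 0.10, adjusted p = 0.00167) and ARO3 (0.33 ± 0.10, adjusted p = 0.0434), which had not fallen at 30 min. LYS21 was lower at 60 min by -0.44 ± 0.13 (adjusted p = 0.0408), a call that was lost whichever of the 6 arrays was left out (adjusted p = 0.0739 to 0.155) and with the replicate number as a block (adjusted p = 0.0506). LYS20 did not pass (0.33 ± 0.16, adjusted p = 0.242). With the round as a block 11 were higher and 1 lower, and all 9 calls were kept. With the 1 array of each time in the second round none passed, and the differences there were 0.73 for GDH1, 1.22 for GLN1 and 0.55 for ASN1.

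**Figure D3:**
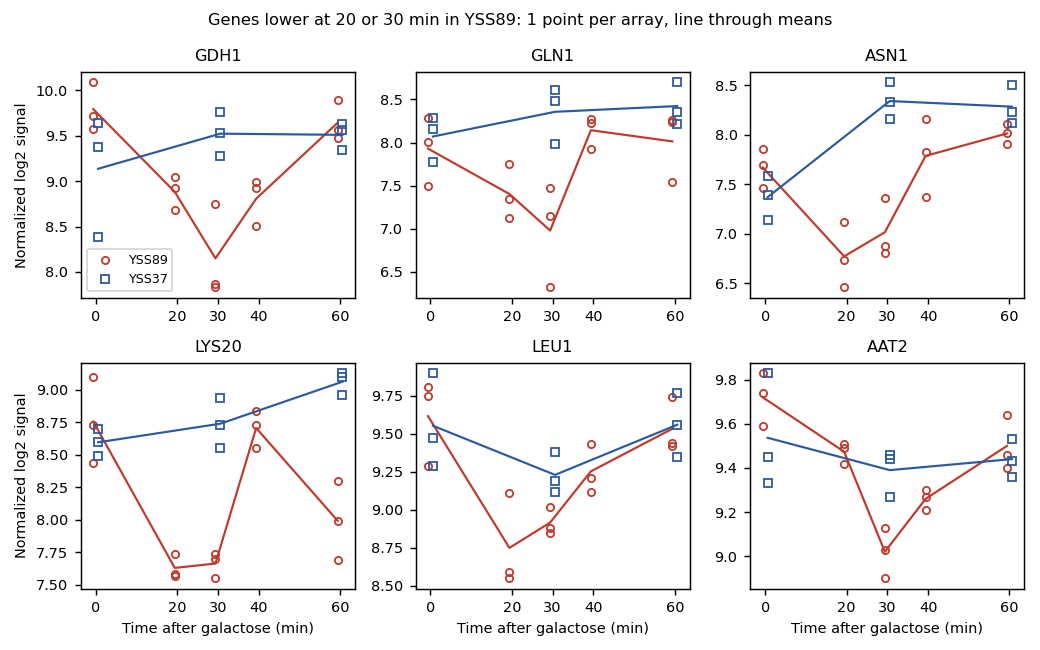
Normalized log2 signal of GDH1, GLN1, ASN1, LYS20, LEU1 and AAT2 against time after galactose (min), 1 point per array, red circles for YSS89, blue squares for YSS37, lines through group means. In YSS89 the points at 20 or 30 min lie under those at 0 min and, except for LYS20, are back near them at 60 min, while the YSS37 means at 30 min differ from those at 0 min by 0.97 for ASN1 and by -0.32 to 0.39 for the others.

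Before galactose the strains already differed. At 0 min 7 of the 54 were higher in YSS89 and 8 lower, against 17.8% and 10.2% of all genes. Higher were ARO7 (0.87 ± 0.15), SER2 (0.76 ± 0.19), HIS1 (0.70 ± 0.13), LEU9 (0.65 ± 0.15), TRP4 (0.60 ± 0.15), LYS4 (0.48 ± 0.14) and GCN4 (0.37 ± 0.09, a direction that turns to -0.18 under median centring). Lower were HIS5 (-0.57 ± 0.20), HOM3 (-0.52 ± 0.16), ARO4 (-0.47 ± 0.15), ARO1 (-0.41 ± 0.12), TRP5 (-0.40 ± 0.10), HOM2 (-0.36 ± 0.11), ARO8 (-0.33 ± 0.11) and ARO3 (-0.27 ± 0.10). The groups lie in different rounds and lots, and on the reduced baseline 5 genes were lower and none higher by limma (the main comparison had 10 higher at an unadjusted p under 0.05). Of the 15 calls 4 remained, ARO8, TRP5, HOM3 and HOM2, and with the round as a block none did. Median centring, which shifts the median of all genes by -0.20, gave 5 higher and 20 lower, and the values as deposited, which shift it by 0.17, gave 12 higher and 6 lower.

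At 30 min 6 members were higher in YSS89 than in YSS37 and 14 lower, against 23.4% and 20% of all genes (4 and 17 members under median centring). The values ran from GLN1 (-1.38 ± 0.28), GDH1 (-1.37 ± 0.27), ASN1 (-1.32 ± 0.20) and LYS20 (-1.07 ± 0.16) at the low end to GLT1 (0.83 ± 0.11), LYS21 (0.89 ± 0.13) and HIS6 (0.94 ± 0.16) at the high end. At 60 min 12 were higher and 2 lower, against 16.5% and 11.4% (5 and 2 under median centring). The 2 lower were LYS20 (-1.07 ± 0.16) and BAT2 (-0.49 ± 0.15), and HIS6 was the highest (0.81 ± 0.16). Of the 12 higher genes 6 were in the aromatic pathway (ARO2, PHA2, TYR1, ARO8, TRP2 and TRP3). With the round as a block the counts were 3 higher and 2 lower at 30 min and 2 higher and 2 lower at 60 min.

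Whether the strains responded differently was tested as the change in YSS89 minus the change in YSS37. At 30 min 4 of the 54 had a higher response in YSS89 and 11 a lower one, against 6.72% and 11% of all genes (7 and 9 members under median centring). At 60 min 7 were higher and 5 lower, against 5.45% and 8.42% (15 and 2 members under median centring, 6 and 7 with the values as deposited). The members' median difference was -0.06 at 30 min and 0.10 at 60 min, and that of all genes -0.03 and 0.03. Under median centring the members' medians were 0.15 and 0.346, so the sign at 30 min depends on the scaling. That scaling shifts the median of all genes by 0.135 and 0.131. At 30 min the lower responses were led by GDH1 (-2.03 ± 0.38, adjusted p = 0.0011), ASN1 (-1.63 ± 0.28, adjusted p = 0.000613), GLN1 (-1.24 ± 0.39, adjusted p = 0.0338) and LYS20 (-1.24 ± 0.22, adjusted p = 0.000853), and the higher ones were HIS6 (1.22 ± 0.23), LYS21 (1.17 ± 0.18), ARO4 (0.84 ± 0.21) and GLT1 (0.63 ± 0.15).

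At 60 min 5 of the 7 higher responses were aromatic genes, namely TRP2 (0.97 ± 0.24, adjusted p = 0.0117), ARO4 (0.70 ± 0.21, adjusted p = 0.0346), ARO1 (0.66 ± 0.17, adjusted p = 0.015), ARO8 (0.64 ± 0.16, adjusted p = 0.0105) and TRP5 (0.49 ± 0.14, adjusted p = 0.023). The other 2 were HIS6 (1.09 ± 0.23, adjusted p = 0.00419) and LYS21. Of these 7, ARO4, ARO1, ARO8 and TRP5 were also called lower in YSS89 at 0 min. The others were lower there too but not called. They were TRP2 (-0.43 ± 0.17, adjusted p = 0.067), LYS21 (-0.29 ± 0.13, adjusted p = 0.102) and HIS6 (-0.27 ± 0.16, adjusted p = 0.222). Lower responses at 60 min were those of LYS20, ARO7 (-0.82 ± 0.21, adjusted p = 0.0147), LYS4 (-0.61 ± 0.20, adjusted p = 0.0446), HIS1 (-0.59 ± 0.18, adjusted p = 0.0354) and GCN4 (-0.43 ± 0.13, which turns to 0.27 under median centring). ARO7, LYS4, HIS1 and GCN4 had started higher in YSS89, and LYS20 was not called at 0 min (0.16 ± 0.16, adjusted p = 0.475).

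On the reduced baseline 3 responses were higher and 5 lower at 30 min, and 5 higher and 1 lower at 60 min. Of the 15 calls at 30 min 8 remained (HIS6, BAT2, LYS20, LYS21, ARO4, ASN1, GDH1 and GLN1), and of the 12 at 60 min 5 (LYS20, LYS21, ARO4, ARO8 and TRP5). HIS6 at 60 min was 0.99 without them (adjusted p = 0.0595), TRP2 0.82 (adjusted p = 0.126) and ARO7 -0.61 (adjusted p = 0.185). With the round as a block 6 calls remained at 30 min (HIS6, BAT2, LYS21, ASN1, GDH1 and GLN1) and 3 at 60 min (LYS21, ARO1 and ARO8).

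**Figure D4:**
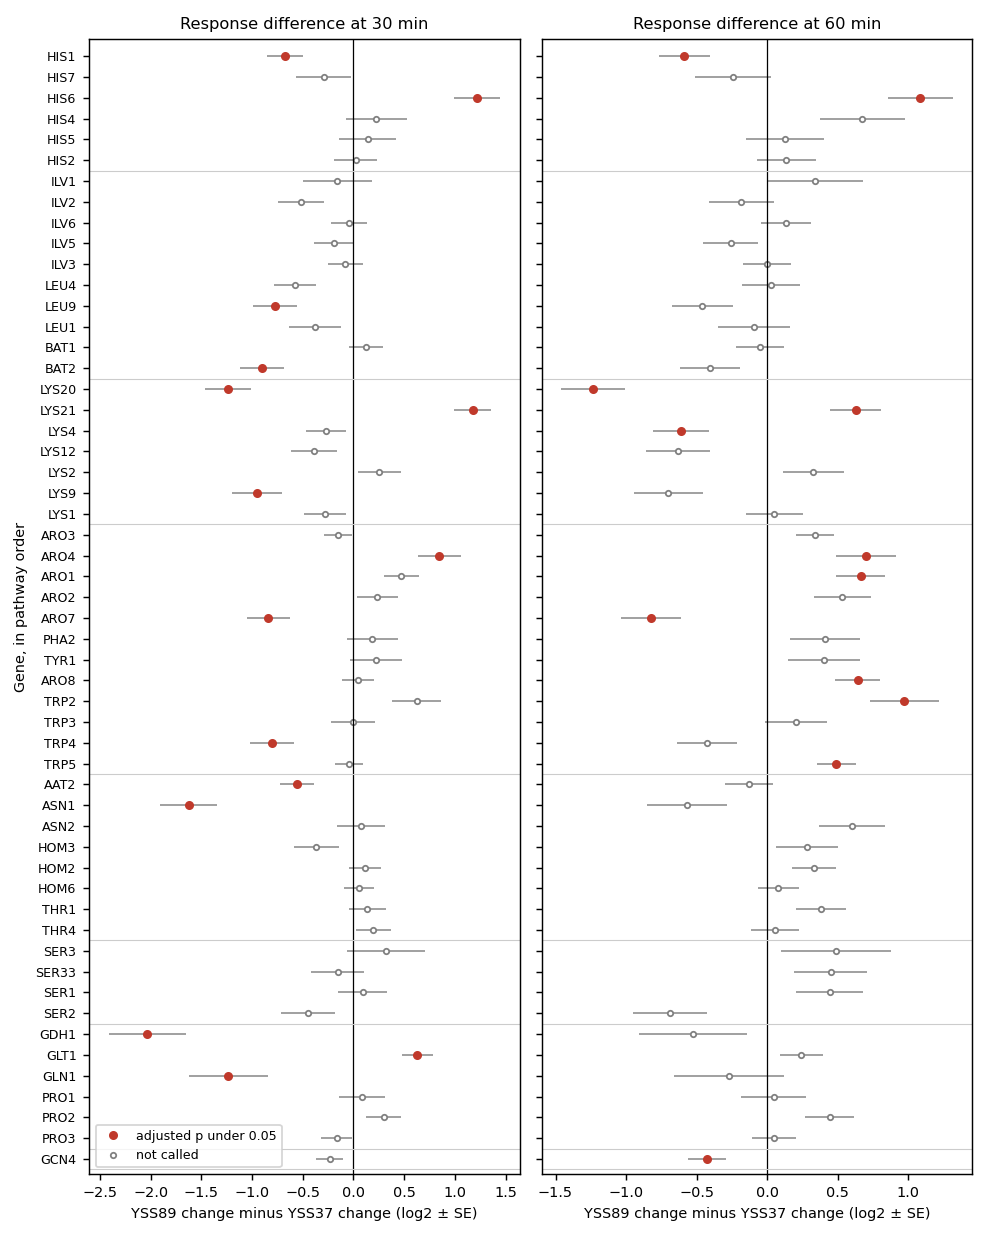
Response difference of each of the 54 genes at 30 min (left) and 60 min (right), as the log2 change in YSS89 minus that in YSS37, with bars of 1 SE and filled red points at an adjusted p under 0.05. At 30 min GDH1, ASN1, GLN1 and LYS20 lie farthest to the left, and at 60 min TRP2, ARO4, ARO1, ARO8 and TRP5 lie to the right with HIS6 and LYS21. GCN4, lowest row, lies left of 0 on this scale and at 0.27 under median centring at 60 min.

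GCN4 (YEL009C) is bright, with a mean signal at the 99th percentile of all genes, and the direction of its change depends on the scaling. On the quantile-normalized scale it read 11.55, 11.52 and 11.65 in YSS89 at 0 min, 11.32, 11.31 and 11.37 at 20 min, 11.24, 11.19 and 11.29 at 30 min, 11.18, 11.17 and 11.06 at 40 min and 11.14, 11.04 and 11 at 60 min. On the deposited linear scale the same YSS89 arrays read 2111.6, 2060.1 and 2309.8 at 0 min, 3190.5, 2972.3 and 3448.8 at 30 min and 2591.4, 2303.4 and 2379.1 at 60 min. The first scale puts every later array below those at 0 min, and the second puts the arrays at 30 min above them and has those at 60 min overlapping them. The change in YSS89 was -0.34 ± 0.09 at 30 min and -0.51 ± 0.09 (adjusted p = 0.000188) at 60 min after quantile normalization, but 0.57 (adjusted p = 0.000118) and 0.17 (adjusted p = 0.196) with the values as deposited and 0.73 and 0.27 under median centring. No direction is therefore given for the GCN4 mRNA in YSS89. In YSS37 GCN4 read 11.37, 11.08 and 11.17 at 0 min, 11.22, 11.01 and 11.08 at 30 min and 11.14, 11.05 and 11.17 at 60 min, overlapping throughout, with a change at 60 min of -0.09 ± 0.09 (adjusted p = 0.484).

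**Figure D5:**
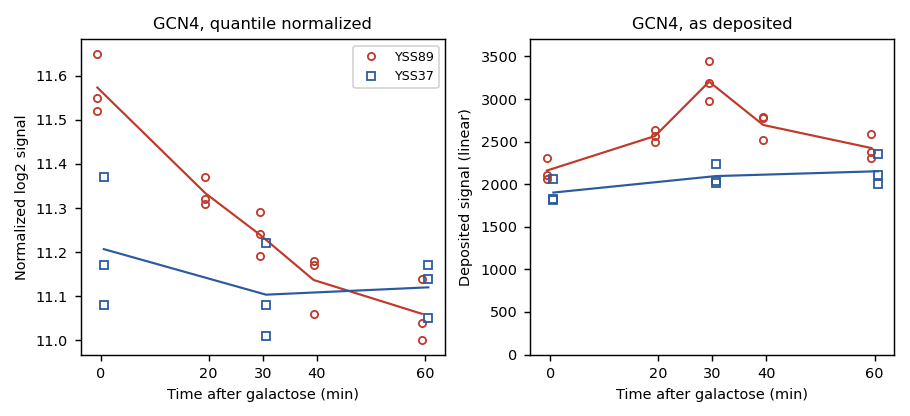
GCN4 signal against time after galactose (min), 1 point per array, red circles for YSS89 and blue squares for YSS37, lines through group means, on the quantile-normalized log2 scale (left) and the deposited linear scale (right, from 0). On the left the YSS89 points lie at 11 to 11.14 at 60 min, against 11.52 to 11.65 at 0 min, and on the right they are highest at 30 min, at 2972.3 to 3448.8, so the direction depends on the scaling.

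Genes that control or oppose these pathways were read from lists also made from general knowledge. Of 15 genes of GCN4 translational control (Gcn2, its partners and initiation factors among them) 11 rose in YSS89 at 60 min (all genes 23.9%). The highest were GCD2 (1.0 ± 0.11) and GCD14 (0.82 ± 0.20). In YSS37 12 of the 15 rose (all genes 21.1%). Of 18 measured regulators of amino acid and nitrogen genes 3 rose in YSS89 at 60 min, a count too small to set apart from the 23.9% of all genes. They were LEU3 (1.06 ± 0.22), BAS1 (0.60 ± 0.21) and STP1 (0.47 ± 0.18). The lowest adjusted p of a negative change among the 18 was 0.161. In YSS37 3 rose and 4 fell, near the 21.1% and 20.5% of all genes. Earlier in YSS89, 6 of the 18 rose and 1 fell at 30 min (all genes 22.4% and 23.6%). At 40 min 7 rose and 0 fell there (all genes 23.9% and 21.5%). LEU3 is the activator of branched-chain genes, and BAS1 acts on histidine and purine genes.

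Of 18 genes of amino acid breakdown and transamination 13 fell and 1, ALT2 (0.52 ± 0.19), rose in YSS89 at 60 min (all genes 19.8% lower and 23.9% higher), and 8 fell and 2 rose in YSS37 (20.5% and 21.1%). The lowest in YSS89 were GDH2 (-2.69 ± 0.16), the NAD-linked glutamate dehydrogenase that breaks glutamate down, ARO10 (-2.59 ± 0.24), a decarboxylase of the fusel alcohol pathway, PUT1 (-2.45 ± 0.23), the proline oxidase, and CHA1 (-2.22 ± 0.51), the catabolic serine and threonine deaminase. In YSS37 at 60 min GDH2 fell by 2.51, ARO10 by 1.44 and CHA1 by 1.86, while PUT1 changed by -0.08 ± 0.23 (adjusted p = 0.807). The response difference at 60 min was called for 6 of the 18, all lower in YSS89 (all genes 8.42%), PUT1 (-2.37 ± 0.33, adjusted p = 9.65e-05) and ARO10 (-1.14 ± 0.35, adjusted p = 0.0343) among them.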

How the data were processed

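Total RNA of each culture was labelled by in vitro transcription and hybridized to Affymetrix YG_S98 arrays, per the labels' protocols. The values used are the signal intensities of 9335 probe sets that the authors deposited, on a linear scale with a trimmed mean of 100.1 on every array; the summary algorithm is not given in the sources used here. All value columns belong to samples of the series. Probe sets were named from the platform annotation, where 6504 name 1 gene, 328 several and 2443 none, and symbols were checked against RefSeq, which changed 0 names.

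The 60 control probe sets were left out, and log2 of the intensity plus 1.4 (the 10th percentile of the table) was quantile normalized with limma 3.58.1 in R 4.3.3. The brightest probe set stood for each of 5656 genes. limma's moderated test was fitted to 8 group means over 24 arrays, with p-values adjusted after Benjamini and Hochberg over all genes of a comparison, and checked on simulated data. The 24 arrays limit the precision, with a median SE of 0.17 for a change and 0.24 for a response difference (the change in YSS89 minus that in YSS37). Correlations between arrays of 1 group were 0.968 to 0.991.

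Any member could be named. Values per array were given for GCN4, the isozyme pairs, the member of each pathway with the largest change in YSS89 at 60 min and the members with a called response difference at 60 min. Those of GDH1, GLN1, GLT1 and HOM3, and the plots of LEU1 and AAT2, were added after their values were seen. The members and lists were chosen with earlier results of these data known. Alternatives covered scaling, pseudocount, dim genes, probe sets, variance prior, groups in the fit, round, replicate number and left-out arrays.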

Additional observations from a re-analysis of the deposited data

Results flagged for a closer look

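The change from 0 min differed between YSS89 and YSS37 by the test of the difference itself for 15 of the 54 genes at 30 min and for 12 at 60 min. Each value here is the log2 change in YSS89 minus that in YSS37. At 30 min the differences were 1.217 for HIS6, 1.174 for LYS21, 0.844 for ARO4 and 0.628 for GLT1. Below 0 at 30 min were GDH1 at -2.032, ASN1 at -1.627, LYS20 and GLN1 at -1.236 each, LYS9 at -0.954, BAT2 at -0.905, ARO7 at -0.839, TRP4 at -0.801, LEU9 at -0.773, HIS1 at -0.674 and AAT2 at -0.555.

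At 60 min the differences were 1.086 for HIS6, 0.973 for TRP2, 0.699 for ARO4, 0.662 for ARO1, 0.641 for ARO8, 0.627 for LYS21 and 0.49 for TRP5. Below 0 at 60 min were LYS20 at -1.234, ARO7 at -0.824, LYS4 at -0.611, HIS1 at -0.586 and GCN4 at -0.426, the last with its direction turned to 0.272 under median centring.

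The 0 min arrays of the strains lie in different hybridization rounds and enter every one of these differences. Of the differences at 30 min 8 remained without replicates 2 and 3 of YSS89 at 0 min, and of those at 60 min 5 did. With the round as a block 6 remained at 30 min and 3 at 60 min.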

How the results depend on the processing

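Counts here are members higher and members lower, in that order. Under median centring they were 5 and 4 in YSS89 at 20 min, with 4 lower at 40 min and 3 at 60 min. They were 11 and 6 in YSS37 at 60 min and 15 and 2 for the response difference at 60 min. The same scaling gave 20 lower between strains at 0 min, 5 higher at 60 min, 7 higher for the response difference at 30 min, and 2 lower in YSS89 at 60 min against 30 min. Values as deposited gave 12 higher at 0 min. With the groups of the contrast alone (fewer arrays) the counts were 1 and 5 in YSS89 at 20 min, 6 higher in YSS37 at 30 min, 2 and 0 between strains at 0 min, 1 lower at 60 min, 6 lower and 2 and 1 for the response differences at 30 and 60 min, and 5 and 0 for 60 against 30 min.

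With the round as a block they were 1 and 2 in YSS89 at 20 min, with 6, 3 and 3 lower at 30, 40 and 60 min. Between strains the round block gave 0 and 1 at 0 min, 3 and 2 at 30 min and 2 higher at 60 min, and for the response differences 2 and 4 at 30 min and 4 and 0 at 60 min. Without replicates 2 and 3 of YSS89 at 0 min they were 1 and 1 at 20 min, with 4 and 3 lower at 40 and 60 min, 0 and 5 between strains at 0 min, and 5 and 1 lower for the response differences at 30 and 60 min. The second round alone, chosen after seeing the data, has 1 array a group except 2 in YSS89 at 20 min, so the spread is that between arrays of 1 group and round over the whole fit, and each lone array is assumed to vary like these. It gave 1 and 0, 8 and 5, 13 and 2, and 17 and 1 in YSS89 at 20, 30, 40 and 60 min, and 0 and 0 both between strains at 60 min and for 60 against 30 min. Other causes than fewer arrays were not tested.

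GCN4 reversed to 0.423, 0.728, 0.425 and 0.274 in YSS89 at 20, 30, 40 and 60 min under median centring, to -0.182 between strains at 0 min and to 0.719 and 0.272 for the response differences. With values as deposited it reversed to 0.567, 0.319 and 0.166 in YSS89 at 30, 40 and 60 min and to 0.427 for the response difference at 30 min. Sign flips of GCN4 called on neither scale come on top of these. With values as deposited they include 0.249 against -0.243 in YSS89 at 20 min and 0.178 against -0.087 in YSS37 at 60 min. LEU4 in YSS89 at 20 min reversed to 0.063 under median centring. Scaling moved the median of all genes by -0.20 (median centring) to 0.17 (as deposited) between strains at 0 min.

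Leaving out 1 array at a time gave 2 to 3 higher and 4 to 9 lower in YSS89 at 20 min (4 lower without replicate 3 of 20 min), 14 to 17 and 9 to 11 at 30 min, 22 to 28 and 6 to 9 at 40 min, and 25 to 27 and 4 to 5 at 60 min. In YSS37 the ranges were 9 to 14 and 0 to 1 at 30 min and 15 to 18 and 2 to 2 at 60 min. Between strains they were 6 to 11 and 2 to 6 at 0 min, 3 to 6 and 12 to 13 at 30 min, and 7 to 10 and 1 to 2 at 60 min. They were 4 to 5 and 9 to 11, and 5 to 10 and 2 to 7, for the response differences at 30 and 60 min, and 5 to 6 and 0 to 0 for 60 against 30 min.

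Same-numbered arrays of 1 strain deviated together little (median r = 0.036 over 39 pairs), so the replicate number was not treated as a pairing. Of these pairs 8 had r over 0.1 (highest 0.331), as had 8 of 78 pairs with different numbers (highest 0.223). Whether same-numbered samples came from 1 culture cannot be told from this. The replicate block gave 0 lower for 60 against 30 min, where LEU1, LYS21 and ARO3 were not called, and moved no other count by over 1.5 times. Of 4077 values of single members under the alternatives 3437 kept the call, 623 lost it, 5 gained it and 12 reversed with a call before or after. Besides GCN4, only members already called in a comparison by the quantile-normalized fit of all arrays were followed. Calls gained by other members are thus not among these values. The 3437 include sign flips of GCN4 that were called neither before nor after. Dim probe sets such as SER3 limit what can be read, since the pseudocount understates their changes.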

Other observations

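The neighbours of 4 genes with a called response difference, genes chosen after the values were seen and placed by RefSeq R64, were read on their own probe sets (log2 changes). FAF1 and RPB3, next to HIS6, changed by 1.34 and 0.42 in YSS89 at 60 min, with response differences of -0.11 and 0.34. STF1 and CDC53, next to LYS21, changed by -2.17 and 0.25 with response differences of -1.16 and 0.35. FCY2 and GIP2, next to HIS1, changed by -1.0 and -2.03 with response differences of -1.72 and 0.71. MET6 and PTC2, next to TRP2, changed by -1.80 and 0.43 with response differences of -1.29 and -0.01. HIS3, the marker of the IFH1 locus in YSS89, read 4.03, 4.11 and 4.04 in YSS89 at 0 min, against 3.16, 2.34 and 2.57 in YSS37.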
